A study of Mus musculus with 8 samples.

Results

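The neutrophil granule genes followed here are 10 genes chosen from a list of granulocyte granule genes, of 37620 gene IDs in the count files. They are 4 genes of primary granules (Mpo, Elane, Prtn3 and Ctsg), 4 genes of secondary granules (Ltf, Ngp, Lcn2 and Camp), and S100a8 and S100a9. All 10 were found by symbol, all 10 had counts in each of the 8 libraries, and all 10 passed the filter on low counts that left 15355 genes for testing. The rule for membership uses no measured value of a gene, although it was set with earlier results of these data known.

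Neutrophils carry antimicrobial proteins in granules that form in sequence as the cell matures. Primary (azurophil) granules are filled in promyelocytes with myeloperoxidase and serine proteases, and secondary (specific) granules are filled in myelocytes and metamyelocytes with lactoferrin, lipocalin 2 and the cathelicidin peptide. S100A8 and S100A9 form calprotectin, an abundant cytosolic complex of myeloid cells that sequesters metal ions, so that these 2 genes encode no classical granule protein. The fetal liver makes red cells and myeloid cells side by side, and the red cell lineage is not known for using this gene program.

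Total RNA without ribosomal RNA was sequenced from erythroid progenitors of C57BL/6 fetal livers at E14.5, isolated by magnetic sorting, transduced, and grown for 24 h with erythropoietin. Knockdown of Bloodlinc, a long noncoding RNA, comprised 1 library for each of 2 hairpins and 1 control hairpin library. Knockdown of hnRNP U, a nuclear RNA-binding protein, also comprised 1 library for each of 2 hairpins and had a control hairpin library of its own. Overexpression was represented by 1 Bloodlinc vector library and 1 empty vector library. The labels do not say whether libraries came from separate cultures or animals, so every p-value here reflects only how these particular samples vary. Within the labelled groups the only repeats are the 2 hairpins of each target. The spread is therefore one between hairpins, drawn to a trend over genes, and any technical variation in it cannot be told apart.

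The libraries were uneven. Counts in genes came to 2931627 and 2612916 with hnRNPU hairpins 1 and 2, and to between 23682993 and 34540691 in the other 6 libraries. Counts outside genes made up 89.7% and 86.6% of the uniquely placed ones in those 2 shallow libraries, and 21.7% to 30.1% in the rest. Within the gene counts, 2 unmatched gene IDs, which have no symbol here, took 32.6% and 22.6% with hnRNPU hairpins 1 and 2. They took 0.0153% to 0.122% in the other 6 libraries. Mitochondrial ribosomal RNA still took from 18.1% of the gene counts (hnRNPU control hairpin) to 28.95% (empty vector). Shares of gene counts and CPM of the unscaled total, given below, include the unmatched IDs and mitochondrial ribosomal RNA. The targeted RNAs were lower in their knockdowns than in their own controls, without passing edgeR's test. Bloodlinc was at 2.19 and 1.75 CPM with the Bloodlinc hairpins and 4.46 CPM with their control (adjusted p = 1). Hnrnpu was at 325 and 373 CPM with the hnRNPU hairpins and 588 CPM with their control (adjusted p = 0.73). Libraries outside each comparison reached below these knockdown levels. Bloodlinc was at 1.26 CPM with the empty vector, 5.46 CPM with the Bloodlinc vector, 1.18 and 3.15 CPM (2 and 8 counts) with the hnRNPU hairpins and 4.355 CPM with their control. Hnrnpu was at 294 and 214 CPM with the Bloodlinc hairpins, 290 CPM with their control, and 678 and 674 CPM with the Bloodlinc vector and empty vector. The 9 erythroid marker genes (Gata1, Klf1, Tfrc, Epor, Slc4a1, Hbb-bt, Hba-a1, Alas2 and Epb42) were detected in every library and summed to between 11200 and 49040 CPM.

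Levels are given as CPM, the usual depth-scaled counts, after scaling by the trimmed mean of M-values (TMM), and comparisons between genes as CPM per kb of exon. In bulk RNA, fewer cells of a type and less RNA per cell cannot be told apart, which holds for every level below.

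On GRCm38 the members lie on 6 chromosomes. Elane (ENSMUSG00000020125, neutrophil elastase) spans chr10:79886247-79888215 on the plus strand and lies 3072 bp from Prtn3 (ENSMUSG00000057729, proteinase 3; chr10:79874476-79883174, plus strand). Mpo (ENSMUSG00000009350, myeloperoxidase) spans chr11:87793581-87804413 on the plus strand, and Ctsg (ENSMUSG00000040314, cathepsin G) spans chr14:56099881-56102574 on the minus strand. Of the secondary granule genes, Ltf (ENSMUSG00000032496, lactoferrin, which binds iron) spans chr9:111019271-111042767 on the plus strand. Ngp (ENSMUSG00000032484, neutrophilic granule protein) spans chr9:110419747-110423012 on the plus strand and Camp (ENSMUSG00000038357, cathelicidin) chr9:109847379-109849617 on the minus strand. These 3 are not direct neighbours, since 8 protein-coding genes lie between Ngp and Camp and 19 between Ngp and Ltf. Lcn2 (ENSMUSG00000026822, lipocalin 2, which binds bacterial siderophores) spans chr2:32384633-32388252 on the minus strand. S100a8 (ENSMUSG00000056054) spans chr3:90668978-90670035 on the plus strand and S100a9 (ENSMUSG00000056071) chr3:90692632-90695721 on the minus strand, with no protein-coding gene between them. Mpo overlaps the antisense gene Gm11505 and Prtn3 overlaps Plppr3 on the opposite strand. The strand setting of the counting is not given in the sources used here, so reads of these overlapping genes cannot be told apart.

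To set the granule classes side by side, start regions are shown for the primary genes Mpo and Elane and the secondary genes Ltf and Ngp. Each is the 250 bases before the RefSeq start (build GRCm38.p6), read 5′ to 3′ on the gene's strand. The windows are chr11:87793534-87793783 for Mpo, chr10:79886062-79886311 for Elane, chr9:111019042-111019291 for Ltf and chr9:110419558-110419807 for Ngp, all on the plus strand. The gene spans given above come from another annotation and begin before these RefSeq starts. Part of each window shown therefore lies inside the gene span, most of it for Mpo. Capitals mark matches to GAGGAA, a purine-rich sequence bound by ETS factors such as PU.1, and to TTNNGNAA, a loose form of the C/EBP sequence, on either strand.
Mpo: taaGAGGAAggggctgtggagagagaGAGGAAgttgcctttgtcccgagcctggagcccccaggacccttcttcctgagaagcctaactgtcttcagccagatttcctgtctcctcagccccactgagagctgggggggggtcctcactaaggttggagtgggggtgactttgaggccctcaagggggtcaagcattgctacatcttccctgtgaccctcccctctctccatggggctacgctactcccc
Elane: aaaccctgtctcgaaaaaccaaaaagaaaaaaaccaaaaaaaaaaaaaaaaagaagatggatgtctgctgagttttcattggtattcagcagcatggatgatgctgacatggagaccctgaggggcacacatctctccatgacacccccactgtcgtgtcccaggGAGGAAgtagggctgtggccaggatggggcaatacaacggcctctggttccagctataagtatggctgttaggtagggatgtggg
Ltf: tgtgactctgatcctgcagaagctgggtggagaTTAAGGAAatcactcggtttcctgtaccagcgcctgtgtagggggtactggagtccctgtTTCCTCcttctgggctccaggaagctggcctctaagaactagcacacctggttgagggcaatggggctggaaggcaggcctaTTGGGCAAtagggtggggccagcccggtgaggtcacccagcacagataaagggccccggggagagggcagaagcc
Ngp: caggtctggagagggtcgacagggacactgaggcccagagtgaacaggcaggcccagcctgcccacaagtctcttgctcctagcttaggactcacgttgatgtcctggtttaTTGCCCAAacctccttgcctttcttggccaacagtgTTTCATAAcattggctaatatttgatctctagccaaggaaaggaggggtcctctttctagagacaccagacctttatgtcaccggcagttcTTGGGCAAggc
The search itself covered 300 bases for each gene, 250 before and 50 after the start, and all 10 members matched an entry by symbol. The windows of Prtn3 and Lcn2 lie wholly inside their gene spans, so matches are not all upstream of the gene by those spans. GAGGAA or its complement TTCCTC was present for 4 of 4 primary genes, for 2 of 4 secondary genes (Ltf and Lcn2) and for S100a8, and in 28.3% of all 32851 such windows. TTNNGNAA or its complement TTNCNNAA was present for 0 of 4 primary genes, for 3 of 4 secondary genes (all but Camp) and for both S100 genes, and in 40.7% of all windows. The matches of the 2 motifs do not overlap each other in the 4 sequences shown. TGTGGT, a RUNX sequence, was found for 3 of 10 members and in 16.8% of windows, and AGATAA, read by erythroid factors of the Gata1 family, for 2 of 10 and in 11.2%. A match describes letters in a window and is not a binding site.

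The members were present in every library, at levels that differed widely. S100a9 had the highest level per kb in all 8 libraries and S100a8 the next. Ngp came in the third place in the 5 libraries outside the Bloodlinc hairpin set, followed by Camp in hnRNPU hairpin 1 and by Mpo in the other 4 of them, whereas Camp came in the third place in the 3 libraries of the Bloodlinc hairpin set. Together the 10 genes took 0.569% and 0.352% of the gene counts with hnRNPU hairpins 1 and 2, and 0.191% with their control hairpin. With Bloodlinc hairpins 1 and 2 the shares were 0.00416% and 0.0063%, and with the Bloodlinc control hairpin 0.00853%. The Bloodlinc vector and empty vector libraries stood at 0.131% and 0.134%. Exact 95% intervals reached from 0.56% to 0.577% for hnRNPU hairpin 1 and from 0.0039% to 0.00443% for Bloodlinc hairpin 1, and they cover counting error only.

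**Figure D1:**
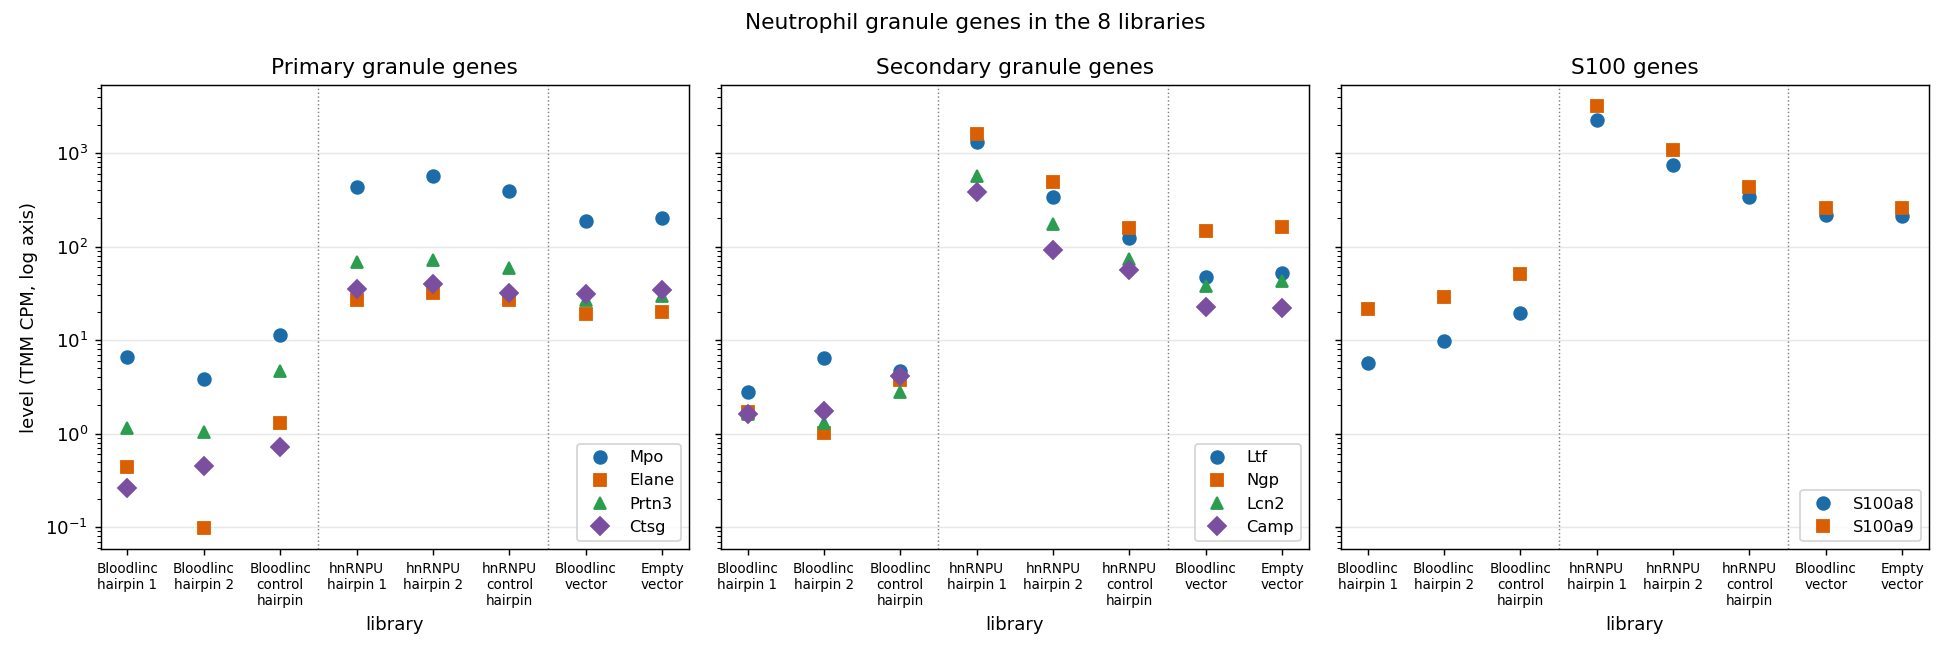
Level of each of the 10 genes (TMM CPM, log axis) in each of the 8 libraries, 1 point per gene and library, in panels for primary granule, secondary granule and S100 genes. All 10 genes lie lower in the 3 libraries of the Bloodlinc hairpin set than in the other 5, and the secondary granule and S100 genes peak in hnRNPU hairpin 1.

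The 3 libraries of the Bloodlinc hairpin set, its control included, held less of every granule gene than any of the other 5. The lowest of the other 5 stood between 5.02 times (S100a9) and 43.7 times (Ctsg) above the highest of the 3. Over all genes tested, 14.7% had all 3 libraries of that set below the other 5. Between the control hairpin libraries alone, 10 of 10 members were at least 8-fold lower in the Bloodlinc control than in the hnRNPU control, where 3.02% of all genes were. The median log2 difference of the members was −4.51, beside −0.08 over all genes. Non-members of the program stood apart as well: all 25 other secondary and tertiary granule genes were lower in the Bloodlinc control, with a median of −3.84, and 14 of 15 regulators and receptors, with a median of −2.46. The other primary granule genes had a median of −2.22, with 3 of 11 higher. Lists of other blood cells were also lower: medians were −2.68 for eosinophil markers (1 of 7 higher), −1.535 for macrophage (2 of 8), −1.16 for mast cell and basophil (0 of 7) and −1.03 for megakaryocyte markers (1 of 6). The erythroid markers had a median of 0.55 in the same pair, higher in 7 of 9. This compares 2 libraries, not conditions, and the hairpin set and anything else that differed between the sets cannot be told apart. Each knockdown is therefore read only against its own control below.

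Among the primary granule genes, Mpo, whose enzyme makes hypochlorous acid, was at 435 and 571 CPM with hnRNPU hairpins 1 and 2, against 389 CPM with their control hairpin. Elane, a serine protease, was at 26.6 and 31.9 CPM with the hnRNPU hairpins and 27.0 CPM with the control. Hairpin 2 of hnRNPU lay above the control for both genes, and hairpin 1 lay above it for Mpo and just below it for Elane. Prtn3, a protease of the same family as elastase, was at 68.0 and 71.7 CPM with the hairpins, against 58.8 CPM with the control, and Ctsg, another such protease, at 35.5 and 39.4 CPM with the hairpins, against 32.1 CPM with the control. Log2 fold changes were 0.37 (SE 0.58) for Mpo, 0.12 (SE 0.61) for Elane, 0.25 (SE 0.55) for Prtn3 and 0.23 (SE 0.58) for Ctsg. None passed edgeR's quasi-likelihood test, with adjusted p between 0.883 and 0.967 over all genes tested. Missing the threshold with errors of this size does not show that the primary genes were unaffected. The direction also depended on the scaling: per kb of the unscaled total, the 4 genes summed to 131 and 271 CPM with hnRNPU hairpins 1 and 2, against 232 CPM with the control. The 2 unmatched IDs took 32.6% and 22.6% of that total with hnRNPU hairpins 1 and 2, and 0.0166% with the control.

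Of the secondary granule genes, Ltf, Ngp and Lcn2 rose in the hnRNPU knockdown. Ltf was at 1297 and 335 CPM with hnRNPU hairpins 1 and 2, against 125 CPM with the control hairpin. Ngp was at 1602 and 492 CPM with the hairpins, against 158 CPM with the control, and Lcn2 at 565 and 173 CPM with the hairpins, against 74.4 CPM with the control. Both hairpin libraries lay above the control for each of these genes, and hairpin 1 lay above hairpin 2. By edgeR's test the log2 fold change was 2.71 for Ltf (SE 0.67; adjusted p = 0.0136), 2.73 for Ngp (SE 0.68; adjusted p = 0.0151) and 2.31 for Lcn2 (SE 0.62; adjusted p = 0.0347). Camp, which encodes the only cathelicidin of the mouse, was at 383 and 91.0 CPM with the hairpins and 56.4 CPM with the control. Its log2 fold change of 2.07 (SE 0.60) missed the threshold (adjusted p = 0.0638), and passed it with DESeq2's size factors in edgeR (2.24; adjusted p = 0.0235).

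S100a8 was at 2265 and 753 CPM with hnRNPU hairpins 1 and 2, against 341 CPM with the control hairpin. S100a9 was at 3178 and 1070 CPM with the hairpins, against 436 CPM with the control. Both had both hairpin libraries above the control, by log2 fold changes of 2.14 (SE 0.68; adjusted p = 0.117) for S100a8 and 2.28 (SE 0.69; adjusted p = 0.0932) for S100a9, and neither passed in edgeR. DESeq2's Wald test called S100a9 (2.45; adjusted p = 0.0234), besides Ltf, Ngp and Lcn2. In all, 3 of the 10 members were called higher and 0 lower, and 0.58% of all genes tested were called higher. Both hairpin libraries lay above the control for 9 of 10 members, the exception being Elane with hairpin 1, where 28.6% of all genes showed the same. The median log2 fold change over all genes tested was −0.09, and 0.03 with DESeq2's size factors in place of TMM.

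These calls depended on hnRNPU hairpin 1. Without that library the log2 fold changes were 1.42 for Ltf, 1.63 for Ngp and 1.21 for Lcn2, and no member was called (adjusted p = 1 for each). Without hairpin 2 they were 3.37, 3.34 and 2.92 for the same genes, and Ngp (adjusted p = 0.0402) and Lcn2 (0.0468) were called while Ltf was not (0.053). With every library thinned to the depth of the shallowest, the log2 fold changes were 3.07, 2.86 and 2.54 and no member was called (adjusted p = 0.535). In a fit of the 3 libraries of the comparison alone no member was called either (adjusted p between 0.135 and 0.179 for these genes), and without a filter on low counts Lcn2 was not called (adjusted p = 0.0714). The part of the low depth and the high share of counts outside genes in these 2 libraries was not tested.

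**Figure D2:**
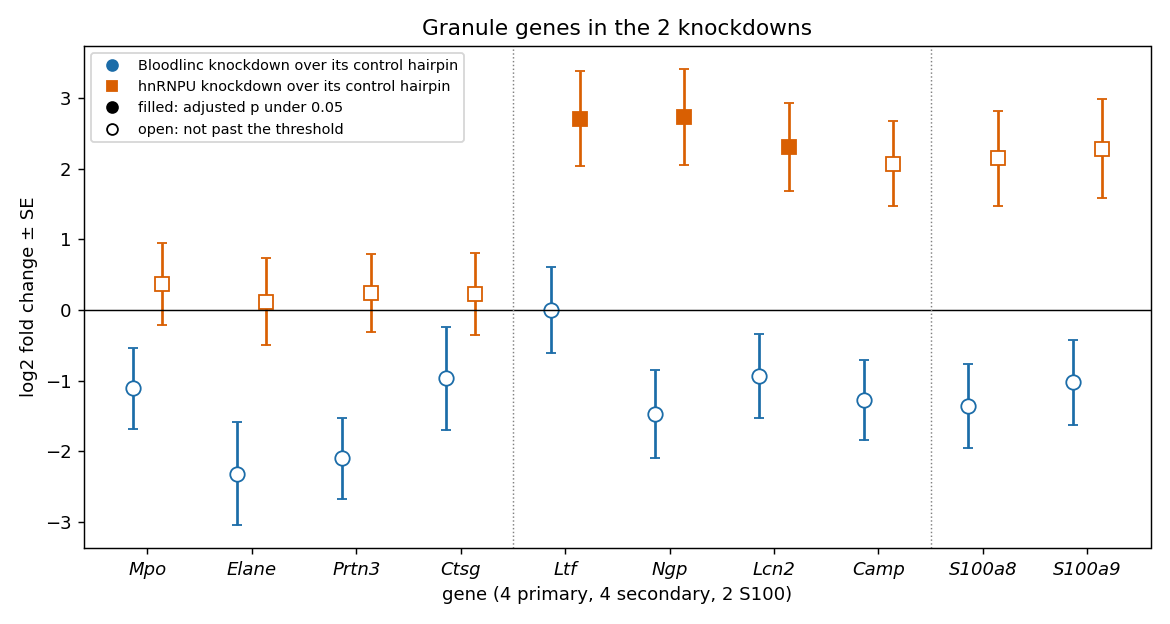
Log2 fold change with its SE for each of the 10 genes in the Bloodlinc knockdown (circles) and the hnRNPU knockdown (squares), each over its own control hairpin library, with filled symbols for adjusted p under 0.05 in edgeR. In the hnRNPU knockdown the 6 secondary and S100 genes lie between 2.07 and 2.73, with Ltf, Ngp and Lcn2 filled, and the 4 primary genes between 0.12 and 0.37; in the Bloodlinc knockdown no gene is filled.

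The balance between the classes was read within each library, where a ratio of summed levels does not depend on scaling between libraries. Summed per kb, the secondary granule genes stood at 10.6 and 2.46 times the primary granule genes with hnRNPU hairpins 1 and 2, against 1.3 times with the control hairpin. The Bloodlinc vector and empty vector libraries had 1.49 and 1.47. With Bloodlinc hairpins 1 and 2 the ratio was 1.51 and 2.42, against 1.36 with the Bloodlinc control hairpin. Hairpin 1 of hnRNPU therefore stood apart from the other 7 libraries, which lay between 1.3 and 2.46, and hairpin 2 of hnRNPU was close to Bloodlinc hairpin 2. A second measure was the mean of log2 levels per gene, secondary minus primary, after 0.5 CPM was added to each level. It was 3.36 and 1.29 with the hnRNPU hairpins and 0.39 with their control. With the Bloodlinc hairpins it was 0.38 and 0.75, and 0.21 with their control. In the Bloodlinc vector and empty vector libraries it was 0.12 and 0.10. The added 0.5 CPM makes this measure depend on scaling and weighs most on low levels. Levels were lowest in the Bloodlinc hairpin set, so its values are not to be ranked against those of the other libraries. The S100 genes stood at 41.1 and 11.2 times the primary genes with hnRNPU hairpins 1 and 2 and at 6.44 times with the control. They were already 14.9 and 30.7 times the primary genes with the Bloodlinc hairpins and 15.8 times with their control. With 2 hairpin libraries and 1 control, no test over libraries was made of these ratios.

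**Figure D3:**
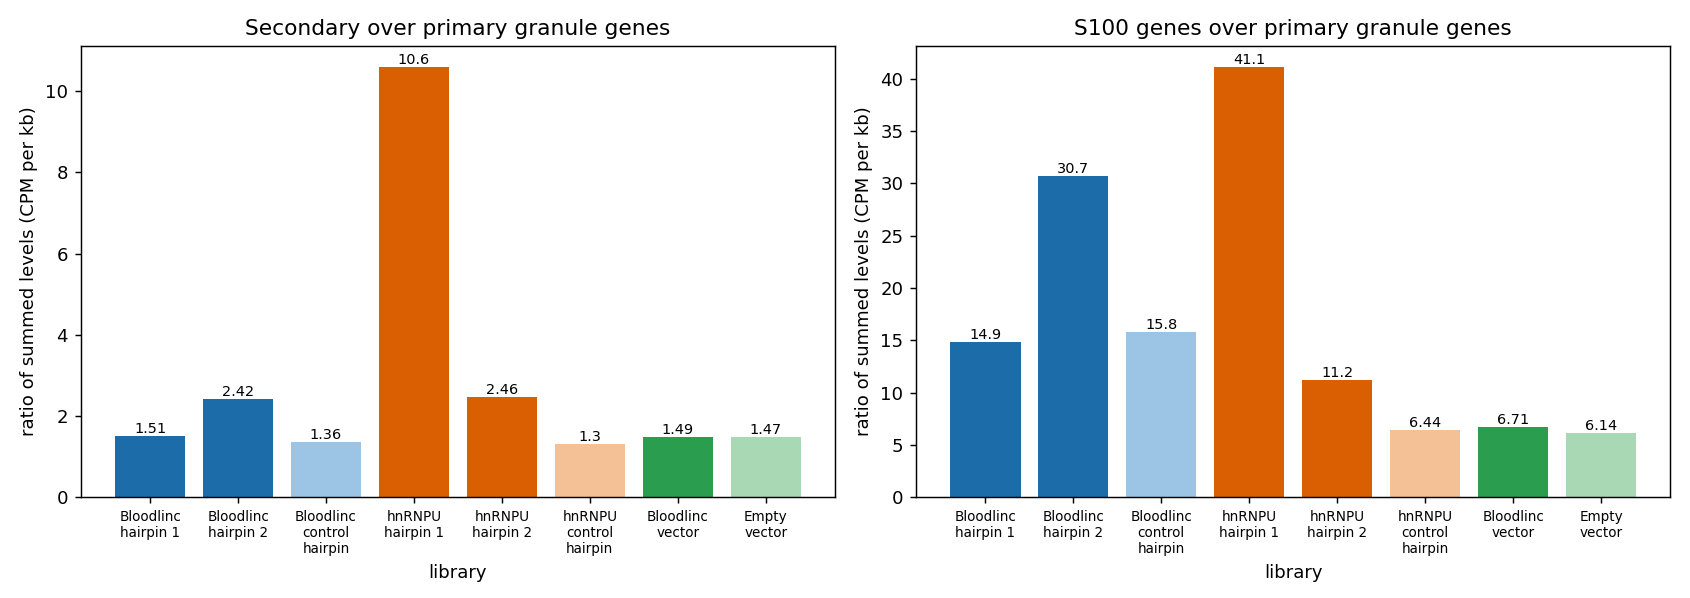
Ratio of the summed level (CPM per kb) of the 4 secondary granule genes (left) and the 2 S100 genes (right) to that of the 4 primary granule genes in each of the 8 libraries, 1 bar per library, from 0. On the left hnRNPU hairpin 1 reaches 10.6 and the other 7 libraries lie between 1.3 and 2.46; on the right the hnRNPU hairpins reach 41.1 and 11.2, against 6.44 in their control.

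Other genes of the same granules, which are not members, were read from the same fit. Of 12 other primary granule genes, 11 were tested in the hnRNPU knockdown, 11 had a positive log2 fold change and 0 passed, with a median of 1.12. Lyz2, lysozyme of myeloid cells, had the largest of them at 2.15 (adjusted p = 0.0932), and was at 1472 and 443 CPM with hnRNPU hairpins 1 and 2, against 216 CPM with the control. Ctsd, the lysosomal protease cathepsin D and the most abundant of the list, had 0.85 (adjusted p = 0.721), Man2b1, a lysosomal mannosidase, 1.23 (adjusted p = 0.445), and Serpinb1a, which inhibits the neutrophil serine proteases, 1.64 (adjusted p = 0.224). Lysosomal members of this list are used by many cell types. Bpi was not tested, with 4 counts in the empty vector library and 0 elsewhere.

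Of 25 other secondary and tertiary granule genes, all 25 had a positive log2 fold change in the hnRNPU knockdown, with a median of 2.04. By edgeR's test 6 were called higher and 0 lower, where 0.58% of all genes tested were called higher. With every library thinned to the depth of the shallowest, 0 genes of any kind were called. The 6 were Stfa3 (2.75; adjusted p = 0.0044), Stfa2 (2.80; 0.0112) and BC100530 (2.20; 0.0409), stefins that inhibit cysteine proteases, Olfm4, a protein of specific granules (2.20; 0.0435), Chil1, a chitinase-like protein (2.75; 0.0471), and Itgam, the integrin CD11b (2.13; 0.0471). The stefin genes are close copies of each other, so reads may be split between them and their values are uncertain. Olfm4 was at 426 and 176 CPM with hnRNPU hairpins 1 and 2, against 65.6 CPM with the control. For each of the 6 genes called, hairpin 1 lay above hairpin 2. Of the most abundant genes of this list, Anxa1, which encodes annexin A1, had 1.97 (adjusted p = 0.103) and Stfa1 1.91 (adjusted p = 0.122).

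Of 15 regulators and receptors of neutrophil formation, all 15 had a positive log2 fold change in the hnRNPU knockdown and 0 passed, with a median of 1.15. Csf2rb, the beta chain of the GM-CSF receptor, had 1.58 (adjusted p = 0.335). The transcription factor genes Myb (0.77; adjusted p = 0.706), Runx1 (0.43; 0.85) and Cebpb (0.88; 0.661) lay lower. Cebpe, named after its value was seen because C/EBP epsilon is required for secondary granule genes in mice, was at 43.7 and 17.7 CPM with hnRNPU hairpins 1 and 2, against 10.4 CPM with the control (log2 fold change 1.56; adjusted p = 0.443). The erythroid markers went in both directions, with 3 of 9 higher, 0 passing and a median of −0.57.

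**Figure D4:**
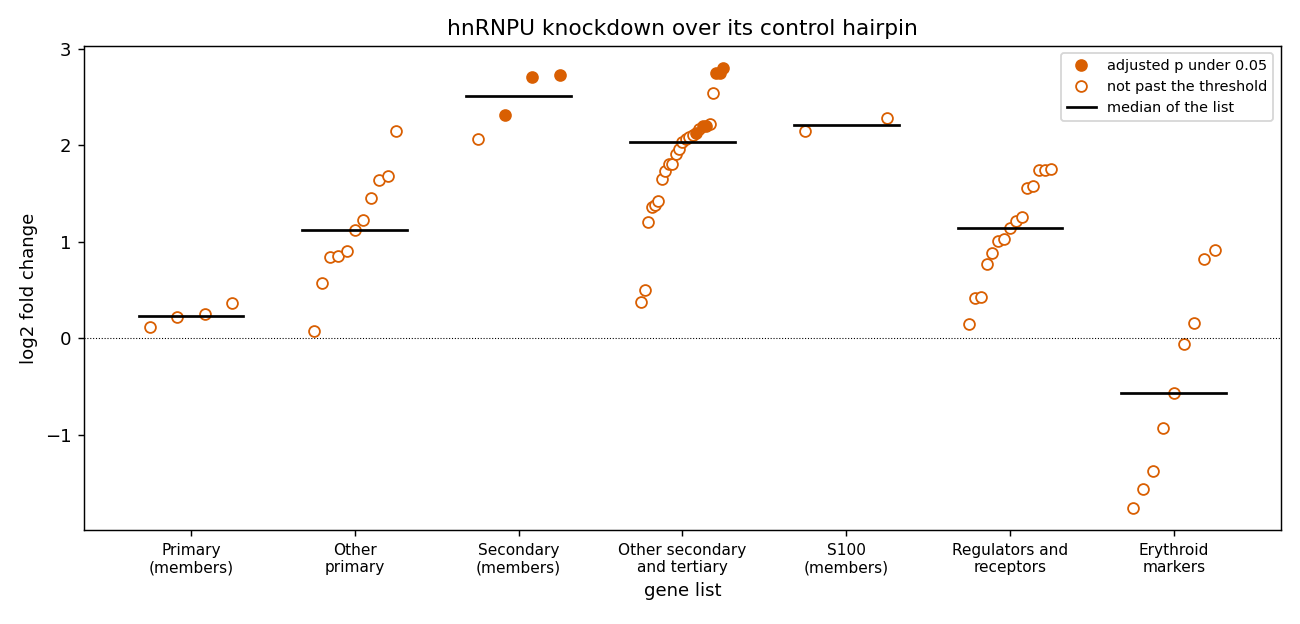
Log2 fold change of each tested gene in the hnRNPU knockdown over its control hairpin, by list, 1 point per gene in ascending order, with a line at the median of each list and filled points for adjusted p under 0.05. The medians are 0.24 for the primary members, 1.12 for the other primary granule genes and 2.51 for the secondary members. They are 2.04 for the other secondary and tertiary granule genes, 2.21 for the S100 genes, 1.15 for regulators and receptors and −0.57 for erythroid markers.

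Markers of other blood cells moved beside these genes. The 12 neutrophil markers that are not members summed to 606 and 279 CPM with hnRNPU hairpins 1 and 2, against 138 CPM with the control, and 11 of 11 tested had a positive log2 fold change, with 1 passing. This list is no further set of genes, since 10 of the 12 also stand in the granule and regulator lists above, and the 1 that passed is Itgam. The 2 that stand in none of them are Fpr1, a formyl peptide receptor gene (log2 fold change 2.91; adjusted p = 0.306), and Ly6g, a marker of mature neutrophils, which had 0 counts in both hairpin libraries and 1 count in the control. The 7 eosinophil markers summed to 184 and 116 CPM with the hairpins, against 43.4 CPM with the control, with 7 of 7 positive, 0 passing and a median of 1.86. Macrophage markers summed to 75.7 and 31.1 CPM with the hairpins, against 21.3 CPM in the control, and 6 of 8 tested were positive, with 0 passing and a median of 1.25. Of the 10 listed, 6 and 3 had 0 counts in hairpins 1 and 2, against 2 in the deeper control. C1qa had 0 counts in all 3 of these libraries, and C1qc in both hairpin libraries. Mast cell and basophil markers summed to 47.3 and 79.6 CPM with the hairpins, against 43.5 CPM with the control, with 7 of 7 tested positive, 0 passing and a median of 0.52. Megakaryocyte markers summed to 102 and 70.5 CPM with the hairpins, against 54.9 CPM with the control, with 6 of 6 positive, 0 passing and a median of 0.69. The part of other blood cells in the granule gene values was not tested.

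In the Bloodlinc knockdown the granule genes were low throughout and mostly lower with the hairpins. Prtn3 was at 1.14 and 1.04 CPM with Bloodlinc hairpins 1 and 2 (26 and 32 counts), against 4.66 CPM (91 counts) with the control hairpin. Its log2 fold change of −2.10 (SE 0.57) had the smallest adjusted p of the members, 0.138. Elane was at 0.438 and 0.0973 CPM (10 and 3 counts) with the hairpins, against 1.28 CPM (25 counts) with the control, and its log2 fold change was −2.31 (SE 0.73) with an adjusted p of 0.389. Taken by itself, hairpin 2 with its 3 counts differed from the control by −2.95 on the log2 scale, with a 95% counting interval of −6.09 to −2.01. Both proteases thus lay below the control in both hairpin libraries, on few counts.

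Mpo was at 6.62 and 3.86 CPM with Bloodlinc hairpins 1 and 2, against 11.3 CPM with the control (log2 fold change −1.11; adjusted p = 1). Ctsg was at 0.263 and 0.454 CPM (6 and 14 counts) with the hairpins and 0.718 CPM (14 counts) with the control (−0.96; adjusted p = 1). Hairpin libraries of both genes lay below the control, and Ctsg was too thinly counted for a closer reading. Of the secondary genes, Ngp was at 1.71 and 1.005 CPM with the hairpins, against 3.74 CPM with the control (−1.47; adjusted p = 0.96). Camp, at 1.62 and 1.75 CPM with the hairpins, against 4.10 CPM with the control, had −1.28, and Lcn2, at 1.62 and 1.30 CPM with the hairpins, against 2.77 CPM with the control, had −0.93. These 3 genes also had both hairpins below the control. Ltf split by hairpin, at 2.80 and 6.42 CPM with hairpins 1 and 2 and 4.61 CPM with the control, which left a log2 fold change of 0.01 (SE 0.61). S100a8 was at 5.61 and 9.66 CPM with the hairpins, against 19.7 CPM with the control (−1.36; adjusted p = 0.993), and S100a9 at 21.3 and 29.0 CPM with the hairpins, against 51.1 CPM with the control (−1.02; adjusted p = 1).

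In all, 0 of 10 members were called in the Bloodlinc knockdown by edgeR at an adjusted p of 0.05, where 0.0261% of all genes tested were called lower. At an unadjusted p under 0.05, 5 of the 10 were lower (Prtn3, Elane, Ngp, S100a8 and Camp), where 1.26% of all genes tested were, and DESeq2 called 0. These p-values come from the fit of all 8 libraries. For each of the 5 genes p was larger in a fit of the 3 libraries of the comparison alone. The members share 1 control library and went broadly together, so they are not 10 separate readings. Both hairpin libraries lay below the control for 9 of 10 members, all but Ltf, against 30.7% of all genes. The median over all genes tested was 0.06, and that of the members was −1.60 for primary, −1.10 for secondary and −1.19 for S100 genes. The erythroid markers had 9 of 9 log2 fold changes below 0, with 0 passing and a median of −0.84. The other secondary and tertiary granule genes had a median of −0.61, with 16 of 25 negative and 0 passing, and the regulators and receptors −0.01. The other primary granule genes stood at a median of 0.44.

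The difference between the knockdown effects, Bloodlinc minus hnRNPU, was tested as a contrast of the same fit, which shares no library between the effects. It was called for 4 members, all lower: Ngp (log2 difference −4.20, SE 0.91; adjusted p = 0.00402), Camp (−3.35, SE 0.82; 0.0229), S100a8 (−3.51, SE 0.90; 0.0363) and Lcn2 (−3.24, SE 0.84; 0.0436) by edgeR. Over all genes tested, 0.306% were called lower. The Bloodlinc side rested on low counts, from 31 to 80 per library for Ngp, Camp and Lcn2 and from 128 to 384 for S100a8. The effects also start from control levels that lay at least 8-fold apart for each member. S100a9 (−3.31; adjusted p = 0.0764) and Ltf (−2.70; adjusted p = 0.224) did not pass. The primary genes had differences of −1.19 (Ctsg), −1.48 (Mpo), −2.35 (Prtn3) and −2.43 (Elane), with adjusted p between 0.377 and 1. Of the other secondary and tertiary granule genes, 22 of 25 were negative and 3 were called lower, namely Fcnb, a lectin of the ficolin family (−3.62; adjusted p = 0.0274), Stfa3 (−3.51; 0.0274) and Anxa1 (−3.15; 0.0434). The 4 member calls were lost when Bloodlinc hairpin 1, Bloodlinc hairpin 2 or hnRNPU hairpin 1 was left out, and 2 of them, Ngp and Camp, were called without hnRNPU hairpin 2. DESeq2's Wald test called Ngp (adjusted p = 0.00563), S100a8 (0.0434) and S100a9 (0.0495) but neither Camp (0.13) nor Lcn2 (0.11). In edgeR, Lcn2 was lost without the 20 most abundant IDs (adjusted p = 0.0592), Lcn2 (0.0894) and Camp (0.0514) were lost without a filter, and S100a9 was gained with DESeq2's size factors (0.048). Over all genes, the median difference was 0.30 under TMM and 0.12 with DESeq2's size factors.

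The Bloodlinc vector library and the empty vector library held nearly the same amounts of granule RNA. There is 1 library each, so there is no test, and the intervals cover counting error only. Bloodlinc itself was at 5.46 CPM with the Bloodlinc vector and 1.26 CPM with the empty vector. It was at 4.46 and 4.355 CPM in the Bloodlinc and hnRNPU control hairpin libraries. Mpo was at 186 CPM with the Bloodlinc vector and 201 CPM with the empty vector, a log2 difference of −0.12 (95% counting interval −0.16 to −0.07). Ltf was at 47.0 CPM with the Bloodlinc vector and 51.9 CPM with the empty vector, a log2 difference of −0.14 (−0.23 to −0.06). The largest difference of the 10 was that of Lcn2, −0.17 (−0.27 to −0.08), at 37.9 CPM with the Bloodlinc vector and 42.7 CPM with the empty vector. S100a9 was at 257 CPM with the Bloodlinc vector and 259 CPM with the empty vector (−0.01; −0.05 to 0.03), and Camp, the highest on this scale, differed by 0.06 (−0.07 to 0.19). None of the 10 members was 1.5-fold apart, where 8.54% of all genes were. The median was −0.12 for the members and 0.01 over all genes. This pair had the closest counts of all 28 pairs of libraries, with a chi-square of 11.6 per degree of freedom over genes, which is still above sampling noise.

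Over the 8 libraries all members went broadly together. Pearson's r of log2 levels was 0.995 between the primary genes Mpo and Elane, 0.996 between Camp and S100a9, and 0.875, the lowest of the pairs, between the primary gene Ctsg and the secondary gene Ltf. These are descriptions over 8 libraries that differ in hairpin or vector set and in depth, with no test. All members lay lower in the 3 libraries of the Bloodlinc hairpin set than in the other 5, and this split enters every r given here. Among 8318 non-member genes compared, the pattern of the primary genes was most like that of Ms4a3 (r = 0.993), a gene of granulocyte and monocyte progenitors, followed by Rpl28, H2afy, Rpl17, Emb and Chil3 (r between 0.989 and 0.992). The pattern of the secondary genes was most like that of Tyrobp (r = 0.999), the adaptor of myeloid activating receptors, followed by Abr, Anxa1, Sirpa, Olfm4 and Nhsl2 (r between 0.998 and 0.999). Ms4a3 was at 26.6 and 21.3 CPM with hnRNPU hairpins 1 and 2, against 16.03 CPM with the control. Tyrobp was at 117 and 40.6 CPM with the hairpins, against 24.6 CPM with the control. Tyrobp thus had the order of the secondary genes, with hairpin 1 above hairpin 2, whereas Ms4a3 had hairpin 1 above hairpin 2 and the 4 primary genes had hairpin 2 above hairpin 1.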

How the data were processed

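Whole-number counts per Ensembl gene were deposited by the authors, 1 file per library, and the submitters' processing notes name TopHat2 2.0.11, HTSeq and the build mm9. Per the labels, libraries were strand-specific by dUTP marking. The HTSeq version, annotation and strand setting are not given in the sources used here. GENCODE M21 (GRCm38) gave symbols for 87.4% of 37620 IDs, and positions. The 5 summary entries of each file stayed out of totals and tests. RefSeq (GRCm38.p6) gave the start regions.

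All 8 libraries entered 1 edgeR 4.0.16 fit (R 4.3.3): TMM scaling, filterByExpr, 6 groups, quasi-likelihood F-tests, Benjamini-Hochberg adjustment over 15355 genes, threshold 0.05. Residual degrees of freedom were 2 and prior degrees of freedom 397, so a gene's spread was drawn to the trend over genes, a gene with distant hairpins could pass, and a lone control was assumed to vary like the hairpins. Log2 differences of single libraries used a prior count of 2, with exact conditional binomial intervals of 95%. Patterns were compared by Pearson's r of log2(CPM + 0.5) over genes with a mean of at least 5 CPM. The fit was tested on simulated data.

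The members and gene lists were chosen with earlier results of these data known. A further erythroid marker is not reported here. Named are all members and, from each other list, genes that passed in a comparison and up to 4 with the highest mean CPM, besides the 6 genes most like each class. Alternatives were DESeq2 1.42.0, its size factors, no filter, removal of the 20 most abundant IDs, other controls, 3 libraries only, each hairpin library left out, and, for class levels, CPM of the total. Removal of the hnRNPU hairpin libraries, of 2 unmatched IDs with mitochondrial ribosomal RNA, and thinning to 2612916 counts were chosen after seeing the data.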

Additional observations from a re-analysis of the deposited data

Results flagged for a closer look

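The effects of the 2 knockdowns differed for 4 granule genes by the test of the difference itself, Bloodlinc minus hnRNPU. The log2 differences were −4.20 for Ngp, −3.35 for Camp, −3.51 for S100a8 and −3.24 for Lcn2. Libraries of the Bloodlinc hairpin set held only 31 to 80 counts each of Ngp, Camp and Lcn2, and 128 to 384 of S100a8. In each case the Bloodlinc hairpin libraries lay below their control and the hnRNPU hairpin libraries above theirs, and the differences for the other 6 members were negative without passing edgeR's test. All 4 calls were lost without Bloodlinc hairpin 1, without Bloodlinc hairpin 2 and without hnRNPU hairpin 1, and DESeq2's Wald test did not call Camp (adjusted p = 0.13) or Lcn2 (0.11).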

How the results depend on the processing

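Leaving out 1 hairpin library at a time gave 0 to 63 called genes in the Bloodlinc knockdown (19 with all libraries), 7 to 59 in the hnRNPU knockdown (135) and 6 to 37 in the difference of the effects (50); members called were 0 to 0, 0 to 2 (3) and 0 to 2 (4). Thinning to equal depth left 0 called genes in each comparison by edgeR, and so 0 members, with 303, 955 and 334 genes at an unadjusted p under 0.05 in the same order. DESeq2 called 5 genes in the Bloodlinc knockdown and 22 in the difference. With 3 pooled controls, 0 genes were called in the Bloodlinc knockdown and 7 in the hnRNPU knockdown, with 0 members; fits of 3 libraries gave 0 genes in the Bloodlinc knockdown and 0 members in the hnRNPU knockdown. Without the hnRNPU hairpin libraries 0 genes were called in the Bloodlinc knockdown. Without a filter 2 members were called in the difference. Against the other control hairpin library, 1043 and 2340 genes and all 10 members were called in the Bloodlinc and hnRNPU knockdowns.

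The near-zero change of Ltf in the Bloodlinc knockdown was negative with DESeq2 (−0.0297), its size factors (−0.0271), no filter (−0.0063), 3 libraries (−0.00679), pooled controls (−3.71), and the other control (−4.75), and ran from −0.716 to 0.50 with 1 Bloodlinc hairpin left out. Elane in the hnRNPU knockdown ran from −0.0256 to 0.23 with 1 hnRNPU hairpin left out. The vector pair's median became 3.59 against the Bloodlinc control hairpin and −0.87 against the hnRNPU control hairpin. The cause was not tested.

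As CPM per kb of the unscaled total, primary, secondary and S100 sums were 131, 1390 and 5397 with hnRNPU hairpin 1, against 232, 302 and 1496 in its control, so that the primary sum of that hairpin lay below its control there. Secondary and S100 sums were 6.33 and 80.1 with Bloodlinc hairpin 2, against 8.91 and 104 in its control. The primary sum of that control was 6.55 on this scale. After TMM scaling the primary sum was 2.26 with Bloodlinc hairpin 2 and 7.98 in its control. Unscaled primary, secondary and S100 sums were 158, 236 and 1062 with the Bloodlinc vector, against 169, 249 and 1040 with the empty vector. No paired analysis was possible because each control has 1 library, so the groups compared share fewer than 2 replicate numbers.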
